A study of Mus musculus with 16 samples.

Results

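The genes described here encode mitochondrial ribosomal proteins, measured in the hypothalamus of fasted and fed mice that lack agouti-related peptide (AgRP) or carry its deletion on 1 chromosome. They were chosen by name: every probe whose annotated symbol begins with Mrpl (large subunit) or Mrps (small subunit) was taken, probes above the median of the table (5.125 on the log2 scale) in at least 4 arrays were kept, and the brightest kept probe stood for its gene. This gave 69 genes of the 76 with such a probe, among 9530 named genes kept in all. The array carried 110 of these probes, and 94 were kept. Of the 69 genes 25 belong to the small subunit and 44 to the large subunit, with Mrps30 and Mrps18a counted in the large subunit, where their proteins sit in the mammalian ribosome in spite of their names. By another division 41 have a counterpart in bacterial ribosomes and 28 are particular to mitochondria.

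Mitochondria translate the few proteins encoded by their own DNA, all of them subunits of the respiratory chain or of ATP synthase, on a ribosome of their own. The RNA of that ribosome comes from mitochondrial DNA, while its proteins are encoded in the nucleus, made in the cytosol and imported, so its supply rests on both genomes. Neurons depend heavily on oxidative phosphorylation, and hypothalamic neurons that sense energy state, among them those that make AgRP, a peptide that promotes feeding, are known to adapt their mitochondria to feeding and fasting.

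Hypothalamic RNA of male mice, of a strain background given as mixed, was measured on 16 arrays. There were 4 arrays each for AgRP-/- mice fasted for 30 h, AgRP-/- mice fed ad libitum, AgRP+/- mice fasted for 30 h and AgRP+/- mice fed ad libitum. Every group thus carried at least 1 deleted Agrp allele, and no wild-type group was analysed here. Whether the arrays come from separate animals is not stated in the labels, and p-values therefore rest on a spread between samples that may be technical.

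Values are log2 intensities as deposited, and arrays correlated between 0.989 and 0.995 over all probes. Agrp had 0 probes by name, and the deletion was therefore not checked here. Of 12 hypothalamic markers 9 were kept, including Npy, Pomc, Hcrt, Pmch, Oxt and Avp. Transcripts of other tissue and of RNA quality moved with feeding or with single arrays. The mean of the midbrain dopamine transcripts Slc6a3, Chrna6 and Th was 8.50 ± 0.619 in fasted and 7.44 ± 0.539 in fed arrays (SD, n = 8 each). The difference between the brightest and the dimmest Actb probe, which can move with RNA integrity, was 4.77 ± 0.497 in fasted and 5.59 ± 0.599 in fed arrays (SD, n = 8 each). The pituitary hormone transcripts Gh and Prl read 7.78 and 7.34 in AgRP+/- fed replicate 2 and 6.14 and 5.17 in AgRP-/- fed replicate 1, against 4.27 to 5.05 and 4.31 to 4.78 in the other arrays. Their part in the results below was not tested beyond the fits with these measures as covariates and without single arrays.

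The start regions of 4 genes are shown here, because Mrps21 was the only member called in any comparison, Mrps18a lay closest to the threshold after it, and Mrpl52 and Mrpl45 had the largest measured decrease and increase with fasting. Each runs from 250 bases before to 50 bases after a transcription start in RefSeq, build GRCm38.p6, 5′ to 3′ on the strand of the gene. Mrps21 lies at chr3:95871465-95871764 on the minus strand, and on the plus strand lie Mrps18a at chr17:46110754-46111053, Mrpl52 at chr14:54426659-54426958 and Mrpl45 at chr11:97315466-97315765. Capitals mark matches, on either strand, to the core bound by NRF1, an activator of nuclear genes for mitochondria (the longest runs in capitals, in Mrps21 and Mrpl45), to CCGGAAG, a core bound by ETS factors such as GABP, and to AAGATGG, a core bound by YY1. Each run of capitals is a single match, and none overlaps another.
Mrps21: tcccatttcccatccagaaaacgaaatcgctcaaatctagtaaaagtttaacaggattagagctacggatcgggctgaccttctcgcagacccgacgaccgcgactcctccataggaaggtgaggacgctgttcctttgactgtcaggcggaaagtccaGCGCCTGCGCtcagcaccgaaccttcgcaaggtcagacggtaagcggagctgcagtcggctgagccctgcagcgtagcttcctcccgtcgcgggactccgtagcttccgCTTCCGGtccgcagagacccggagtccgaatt
Mrps18a: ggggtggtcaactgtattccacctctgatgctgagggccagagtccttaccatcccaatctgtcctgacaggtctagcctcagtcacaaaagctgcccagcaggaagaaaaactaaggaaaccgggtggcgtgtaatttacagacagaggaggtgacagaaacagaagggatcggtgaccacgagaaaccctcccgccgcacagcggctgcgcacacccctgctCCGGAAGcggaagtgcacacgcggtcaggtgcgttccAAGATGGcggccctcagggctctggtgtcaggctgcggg
Mrpl52: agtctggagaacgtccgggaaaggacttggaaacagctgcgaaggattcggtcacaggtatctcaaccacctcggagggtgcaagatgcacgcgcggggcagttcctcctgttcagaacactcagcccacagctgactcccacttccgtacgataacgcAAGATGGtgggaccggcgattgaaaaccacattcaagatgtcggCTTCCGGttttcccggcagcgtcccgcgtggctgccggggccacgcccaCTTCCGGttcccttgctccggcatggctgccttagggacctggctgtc
Mrpl45: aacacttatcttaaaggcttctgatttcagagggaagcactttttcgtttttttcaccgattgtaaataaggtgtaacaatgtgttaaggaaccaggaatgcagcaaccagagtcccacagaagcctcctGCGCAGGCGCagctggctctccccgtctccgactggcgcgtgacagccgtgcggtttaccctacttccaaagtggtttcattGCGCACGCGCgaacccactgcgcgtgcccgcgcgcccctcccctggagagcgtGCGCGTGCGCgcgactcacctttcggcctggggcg

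The window of Mrps21 holds 1 NRF1 and 1 ETS match, that of Mrps18a 1 ETS and 1 YY1 match, that of Mrpl52 2 ETS matches and 1 YY1 match, and that of Mrpl45 3 NRF1 matches. RefSeq windows were matched for 62 of the 69 members, 68 windows in all, and shares are set against all 32851 windows of the table. The ETS core stood in 36.8% of the members' windows and in 8.86% of all windows, the NRF1 core in 14.7% and 4.60%, and the YY1 core in 17.6% and 6.34%. The cytosolic ribosomal proteins had the ETS core in 33.3% of their 60 windows, the YY1 core in 20.0% and the NRF1 core in 8.33%. Their ETS and YY1 shares were close to those of the members. The CCAAT box was about as common in the members' windows as in all windows, at 38.2% and 37.4%, while TATAAA stood in 7.35% and 13.6%. The median GC content was 58.5% in the members' windows and 52.7% in all windows, which itself bears on GC-rich letters. A match describes the sequence only and shows no binding, and windows without these letters say nothing of the factors.

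The question of the first comparison is whether a fast of 30 h changes the transcripts of the mitochondrial ribosome. Averaged over genotypes, 1 of the 69 members was called lower in fasted mice, Mrps21, and 0 were called higher (limma, adjusted p under 0.05 over all kept probes). Of all 9530 genes 1.98% were called lower and 2.33% higher, 4.31% in either direction, and the members' share in either direction was 1.45%. No member had fasted arrays all on one side of the fed arrays (0 of 69), against 0.262% of all genes lower and 0.609% higher without overlap.

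The members' measured changes were nonetheless small and mostly in the same direction. The members share arrays and varied together, so a count of members below 0 is not a count of independent results. Their median change was -0.060 on the log2 scale, with 51 of 69 below 0 (73.9%), while the median of all genes was -0.0032 with 50.8% below 0. The quartiles of the members lay at -0.11 and 0.00028. A total of 47 members (68.1%) moved by less than 0.1 and 5 (7.25%) by more than 0.2, against 53.9% and 18.3% of all genes, so the members were also tighter around 0 than the table. They were brighter than the table as well (median level 9.98 against 7.86), and genes of equal brightness were not compared. At an unadjusted p under 0.05 stood 11 lower and 3 higher members, 15.9% and 4.35% of 69, beside 10.5% and 10.4% of all genes in those directions. The 95% interval of a single member's change spanned ± 0.13 in the median, which is not the interval of the members' median. The mean of the members, relative to all arrays, was -0.024 ± 0.0572 in fasted and 0.024 ± 0.0735 in fed arrays (SD, n = 8 each). Within groups the SD of that mean was 0.071. Whether the members changed as a set was not tested. In bulk tissue, fewer cells of a type and less RNA per cell cannot be told apart. The arrays had been brought to nearly equal distributions before deposit, which hides any change common to most transcripts.

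**Figure D1:**
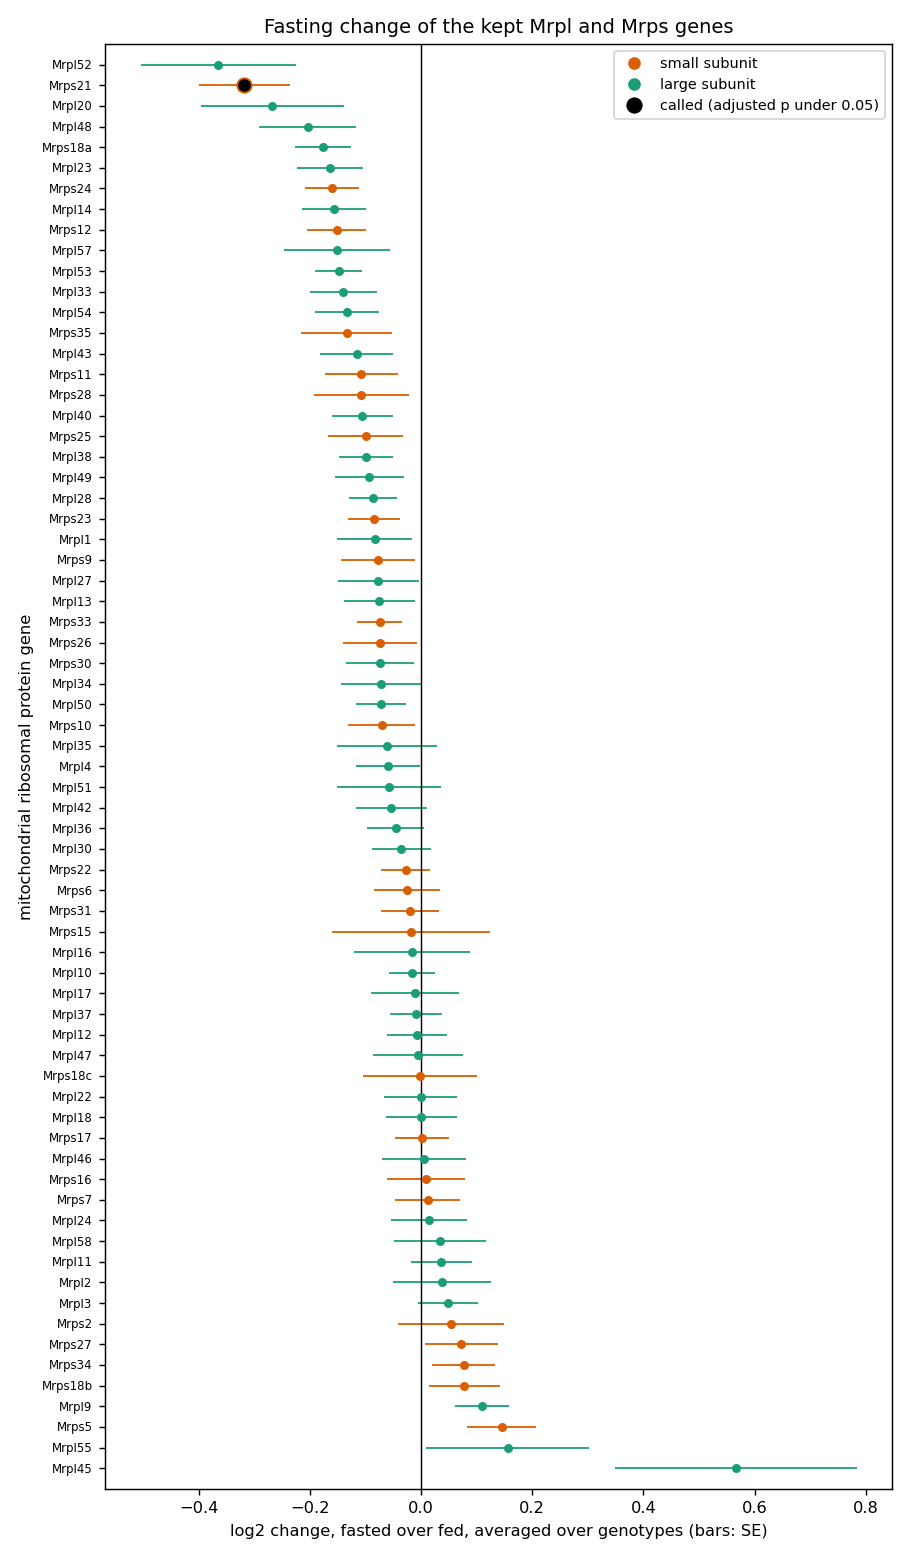
Fasting change of each of the 69 genes on the log2 scale, fasted over fed and averaged over genotypes, ordered from the lowest to the highest, with bars of 1 standard error. Most points lie left of 0, within 0.2 of it, and Mrps21, marked in black, is the single called gene.

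Mrps21 encodes a small-subunit protein whose bacterial counterpart sits on the platform of that subunit. It read 10.06, 9.74, 9.90 and 9.75 in fasted AgRP-/- arrays and 10.22, 9.98, 10.39 and 10.03 in fed AgRP-/- arrays. In AgRP+/- mice it read 10.18, 10.04, 10.04 and 9.87 in fasted and 10.49, 10.02, 10.59 and 10.40 in fed arrays. The fasted arrays were the lower ones in each genotype, with some overlap, since the lowest fed arrays lay among the fasted ones. Mrps21 fell by 0.32 (SE 0.082, limma adjusted p = 0.0348), or to 0.802-fold. The change was -0.29 in AgRP-/- mice and -0.34 in AgRP+/- mice (adjusted p = 0.287 and 0.246), so it was called in neither genotype alone. The call rested on many single arrays. Leaving out any of these arrays ended it: fasted 2, 3 and 4 and fed 1 and 3 of AgRP-/- mice, and fasted 2 and 4 and fed 1, 3 and 4 of AgRP+/- mice. The change was then -0.32 to -0.28, with an adjusted p of 0.0526 to 0.0716. It was also lost without the intensity trend (adjusted p = 0.0637), with the Actb difference as a covariate (-0.31, adjusted p = 0.190) and with the dopamine transcripts as a covariate (-0.48, adjusted p = 0.0727). Over all alternatives the adjusted p ran from 0.00587 to 0.190, and the change stayed below 0.

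Among the other small-subunit genes, Mrps12 and Mrps24 lay lowest, and Mrps5 and Mrps18b highest. Mrps12, whose bacterial counterpart lies at the decoding centre, read 11.41, 11.45, 11.41 and 11.41 in fasted and 11.62, 11.61, 11.75 and 11.43 in fed AgRP-/- arrays, and 11.88, 11.51, 11.53 and 11.63 in fasted and 11.73, 11.79, 11.71 and 11.80 in fed AgRP+/- arrays. Its fasted AgRP-/- arrays lay close together, and only 1 fed AgRP-/- array lay among them, while AgRP+/- fasted replicate 1 was the highest of all. The change was -0.15 (SE 0.0529, adjusted p = 0.108), it was called without AgRP+/- fasted replicate 1 (-0.19, adjusted p = 0.0243), and it was -0.013 with the Actb difference as a covariate. Mrps24, the counterpart of a bacterial protein of the small-subunit head, spanned 11.72 to 12.06 with a median of 11.96 in fasted arrays and 11.96 to 12.18 with a median of 12.15 in fed arrays. The ranges overlapped, and the change of -0.16 was not called (SE 0.0489, adjusted p = 0.0692), except without AgRP-/- fed replicate 1 (-0.18, adjusted p = 0.0424).

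Mrps5, whose bacterial counterpart lines the path of the incoming messenger RNA, stood on the other side. It read 8.62, 8.78, 8.64 and 8.92 in fasted and 8.63, 8.56, 8.40 and 8.52 in fed AgRP-/- arrays, and 8.63, 8.69, 8.49 and 8.75 in fasted and 8.50, 8.58, 8.51 and 8.67 in fed AgRP+/- arrays. Fasted arrays tended to be higher but overlapped the fed ones in both genotypes. The change of 0.15 was not called (SE 0.0622, adjusted p = 0.193). The other kept Mrps5 probe, with a mean of 7.71, read 0.023 (SE 0.0783). On that probe the change was -0.055 in AgRP-/- and 0.10 in AgRP+/- mice, so the rise was not seen again there. The related genes Mrps18a, Mrps18b and Mrps18c, which descend from a single bacterial ribosomal protein gene, read -0.18, 0.078 and -0.0024, and 0 of them were called. Over the 25 small-subunit genes the median change was -0.028, with 17 below 0.

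Large-subunit genes held the largest measured changes, and 0 of the 44 were called. Mrps18a, which sits in the large subunit, read 10.29, 10.14, 10.31 and 10.22 in fasted and 10.47, 10.48, 10.56 and 10.28 in fed AgRP-/- arrays, and 10.34, 10.37, 10.45 and 10.30 in fasted and 10.43, 10.43, 10.61 and 10.56 in fed AgRP+/- arrays. In each genotype nearly every fasted array lay below the fed ones, with an overlap through a single low fed AgRP-/- array and a single high fasted AgRP+/- array. The change of -0.18 just missed the threshold (SE 0.0498, adjusted p = 0.0503). It passed with the stricter filter, with array weights and with the mean of all kept probes of a gene. Mrps18a has only 1 kept probe, so that mean left its change at -0.18 and added no further probe. It also passed when AgRP-/- fed 4, AgRP+/- fasted 3 or AgRP+/- fed 2 was left out. In these fits the limma adjusted p ran from 0.0254 to 0.0477. Over all alternatives its adjusted p ran up to 0.411.

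Mrpl52, a large-subunit protein particular to mitochondria, had the largest decrease measured. It read 9.19, 8.85, 9.43 and 9.05 in fasted and 9.31, 9.61, 9.67 and 9.27 in fed AgRP-/- arrays, and 9.38, 8.99, 8.95 and 8.04 in fasted and 8.98, 9.21, 9.39 and 9.36 in fed AgRP+/- arrays. AgRP+/- fasted replicate 4 lay far below the rest, and the groups overlapped. The change of -0.36 was not called (SE 0.139, adjusted p = 0.142), and without that array it was -0.23. Mrpl20, the counterpart of a bacterial protein needed early in large-subunit assembly, spanned 8.60 to 9.34 with a median of 9.02 in fasted arrays and 8.81 to 9.75 with a median of 9.10 in fed arrays. Its medians were close, the highest values stood in single fed arrays of each genotype, and its change was -0.27 (SE 0.129, adjusted p = 0.249) and -0.17 without AgRP+/- fed replicate 3. Mrpl48, another protein particular to mitochondria, spanned 10.53 to 11.04 in fasted and 10.53 to 11.10 in fed arrays, with medians of 10.73 and 11.00. Its ranges coincided at the low end, and its 3 probes gave -0.20, -0.19 and -0.14, none of them called.

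Mrpl53, which lies near the stalk of the large subunit, had small changes measured with little spread. It spanned 10.50 to 10.68 with a median of 10.60 in fasted arrays and 10.59 to 10.84 with a median of 10.74 in fed arrays, and its change was -0.15 (SE 0.0427, adjusted p = 0.0548). It was called with the stricter filter, with array weights, with the mean of all kept probes and without AgRP+/- fed replicate 2 (adjusted p from 0.0281 to 0.0466). Mrpl53 too has only 1 kept probe, so the mean over probes left its change at -0.15. Mrpl23, Mrpl14 and Mrpl54 read -0.16, -0.16 and -0.13, each with an unadjusted p under 0.05 and none called. Mrpl12, the protein of the stalk that meets translation factors and that also binds the mitochondrial RNA polymerase, was -0.0072 (SE 0.0538), and Mrpl58, a peptidyl-tRNA hydrolase built into the large subunit, was 0.035 (SE 0.0828). The interval of both includes 0 and changes of about the size of the members' median. Mrps30 was -0.074 (SE 0.0609).

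Mrpl45 anchors the ribosome to the inner membrane near the exit of the peptide tunnel, and its increase of 0.57 was the largest among the members. It read 5.50, 6.40, 6.39 and 5.45 in fasted and 5.85, 5.31, 4.90 and 5.01 in fed AgRP-/- arrays, and 6.29, 5.49, 5.31 and 5.99 in fasted and 6.17, 5.33, 5.10 and 4.64 in fed AgRP+/- arrays. The groups overlapped widely, and the change was not called (SE 0.217, adjusted p = 0.144). These values lie near the filter, where signal cannot be separated from background: Mrpl45 exceeded it in 12 arrays, while each of the other 68 members exceeded it in all 16. Among the other large-subunit genes the highest were Mrpl55 at 0.16 and Mrpl9 at 0.11, neither called (adjusted p = 0.595 and 0.212), and Mrpl55 was 0.060 without AgRP+/- fed replicate 2. Just outside the filter was Mrpl39, above it in 2 arrays with values of 4.51 to 5.33, and Mrpl15, Mrpl19, Mrpl21, Mrpl32, Mrps14 and Mrps36 were above it in 0 arrays.

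**Figure D2:**
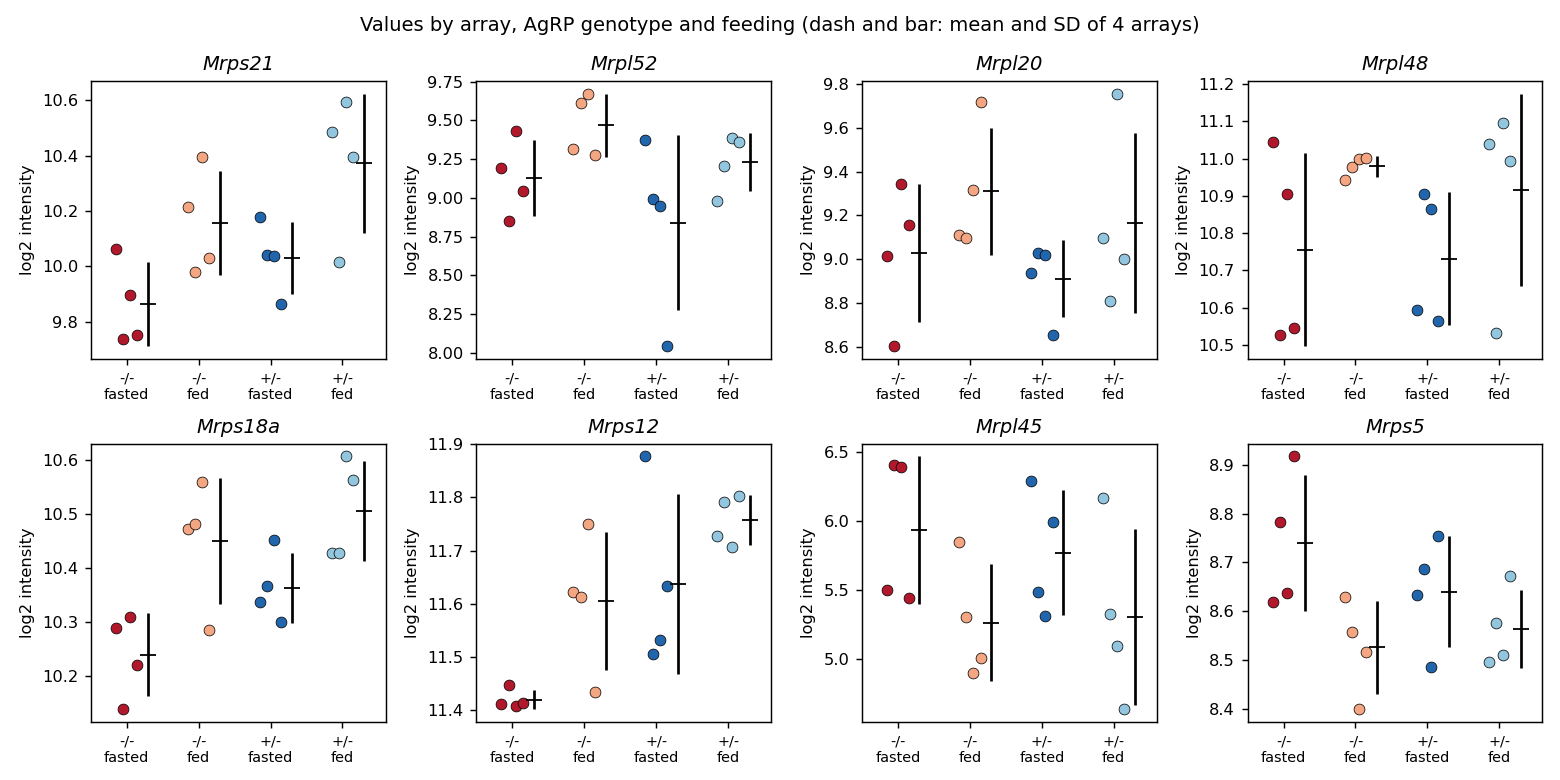
Log2 intensities of 8 genes in each of the 16 arrays, with 1 point per array, and the mean and SD of each group of 4. Fasted arrays lie lower for Mrps21 and Mrps18a in both genotypes, AgRP+/- fasted replicate 4 stands far below the others for Mrpl52, and Mrpl45 spans a wide range near background.

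Genes with several probes let the same transcript be read again. Of 19 genes with more than 1 kept probe (44 probes) the fasting changes of 4 differed in sign, and only Mrpl49 did so by more than 0.2, its probes reading -0.093, -0.083, -0.12 and 0.30. Mrpl33, the counterpart of a small bacterial large-subunit protein, is the case where the choice of probe decides the call. Its brightest probe spanned 10.90 to 11.25 with a median of 11.01 in fasted arrays and 10.93 to 11.40 with a median of 11.16 in fed arrays, and was -0.14 (SE 0.0611, adjusted p = 0.202). Its other probe spanned 10.84 to 11.06 with a median of 10.90 in fasted arrays and 11.04 to 11.31 with a median of 11.15 in fed arrays. On that probe the ranges met only at their edges, and it fell by 0.23 (SE 0.0446, limma adjusted p = 0.00513). Over all 94 member probes, 2 were called lower, that one and the Mrps21 probe, and 0 higher.

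By subunit, the median change of the 44 large-subunit genes was -0.061, with 34 below 0, beside -0.028 for the 25 small-subunit genes. The members were also divided by whether their protein was listed as having a bacterial counterpart. In this division Mrps18c has one, while its relatives Mrps18a and Mrps18b are counted as particular to mitochondria. The 28 genes particular to mitochondria had a median of -0.074, with 22 below 0, and the 41 with a bacterial counterpart had -0.025, with 29 below 0. Related sets had medians of similar size. The 57 cytosolic ribosomal protein genes had a median of -0.037 with 38 below 0 (66.7%), 2 called higher and 0 lower. The 72 genes of the respiratory chain and ATP synthase had -0.052 with 55 below 0 (76.4%) and 0 called. The differences between any of these groups were not tested.

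**Figure D3:**
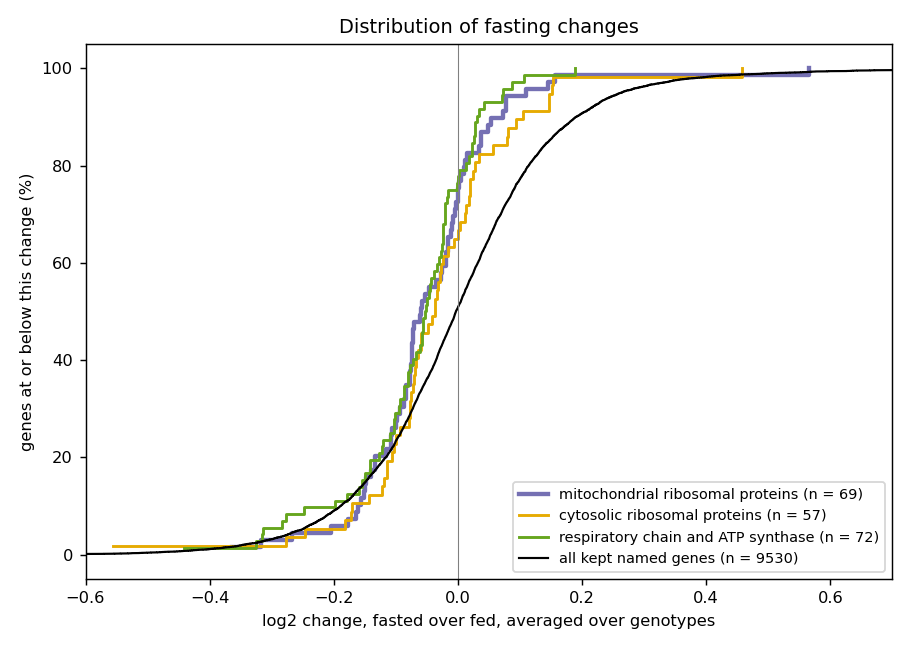
Share of genes at or below each fasting change on the log2 scale, averaged over genotypes, for the 69 mitochondrial ribosomal protein genes, 57 cytosolic ribosomal protein genes, 72 genes of the respiratory chain and ATP synthase, and all 9530 kept named genes. The 3 sets run together, left of the curve of all genes around 0, and steeper than it.

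Other parts of the mitochondrial translation system had 0 called genes in this comparison, set beside 4.31% of all genes. The 4 measured mitoribosomal proteins that are named otherwise were all below 0: Chchd1 -0.070, Ptcd3 -0.061, Dap3 -0.019 and Gadd45gip1 -0.28. Gadd45gip1 had a mean of 4.99, under the filter value of 5.12, so its signal cannot be separated from background. Of 9 translation factors, which start, extend and end the peptide chain, the median was -0.010, with Mrrf, which recycles ribosomes, at -0.17 and Mtfmt, which formylates the initiator tRNA, at 0.17 with a mean of 5.62 and a lowest array of 4.97, near background. The 20 genes of ribosome assembly and rRNA modification had a median of -0.043, and the GTPases Mtg1 and Mtg2 read -0.29 each, while the rRNA methyltransferase Tfb1m read -0.24. The 18 genes of mitochondrial transcription and RNA processing had a median of -0.031, led by Fastkd1 at -0.31 (adjusted p = 0.0959), and the 17 genes that charge mitochondrial tRNAs had 0.012. Genes of mitochondrial DNA, among them those of the ribosome's own RNA, were matched by 0 probes.

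Within each genotype, 0 members were called with fasting. In AgRP-/- mice 0.42% of all genes were called in either direction, and in AgRP+/- mice 0.797%. The median change of the members was -0.062 in AgRP-/- mice, with 48 of 69 below 0, and -0.039 in AgRP+/- mice, with 51 below 0, against -0.0065 and -0.0015 for all genes. At an unadjusted p under 0.05, 2 members were higher and 7 lower in AgRP-/- mice, beside 6.55% and 6.99% of all genes. In AgRP+/- mice 0 were higher and 3 lower, beside 6.64% and 5.14%. The medians leaned on single arrays. In AgRP-/- mice the median was -0.031 without fasted replicate 2. In AgRP+/- mice it was -0.0026 without fed replicate 3, -0.012 without fasted replicate 4, -0.019 without fed replicate 4, -0.064 without fasted replicate 3, -0.073 without fasted replicate 1 and -0.10 without fed replicate 2. The averaged median of -0.060 was -0.035 without AgRP+/- fed replicate 3 and -0.036 without AgRP+/- fasted replicate 4.

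Side by side, the genotypes gave similar pictures. Of 69 members 41 were below 0 in both genotypes, 11 above 0 in both and 17 on opposite sides. The sign was the same for 75.4% of members and 67.6% of all genes. Both changes were below 0 for 59.4% of members and 34.8% of all genes. Across the members, which share arrays and are not independent, the changes of the genotypes correlated at 0.733 by Pearson's and 0.546 by Spearman's coefficient, against 0.513 and 0.487 across all 9530 genes. The genotypes have their own fasted and fed arrays, so these values share no sample. Mrps21 (-0.29 in AgRP-/- and -0.34 in AgRP+/- mice), Mrpl52 (-0.34 and -0.39) and Mrpl45 (0.67 and 0.46) stood at the ends in both genotypes with all arrays in the fit. In AgRP+/- mice Mrpl52 was -0.13 without fasted replicate 4, and Mrpl45, near background, was 0.24 without fed replicate 4, 0.29 without fasted replicate 1 and 0.75 without fed replicate 1.

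**Figure D4:**
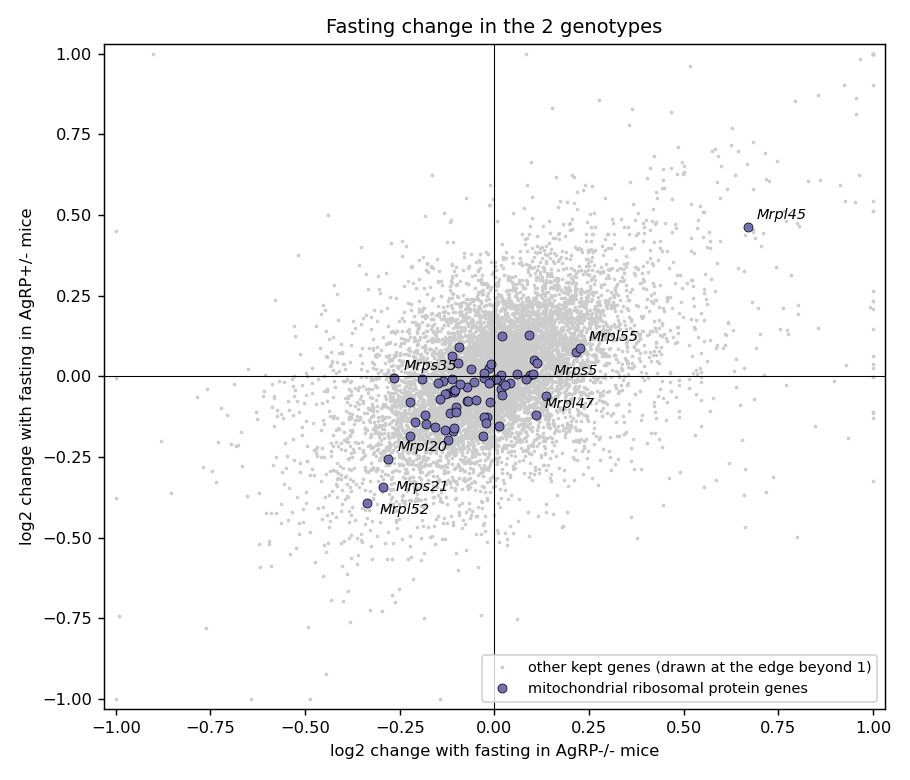
Fasting change on the log2 scale in AgRP-/- mice (horizontal axis) and AgRP+/- mice (vertical axis) for the 69 members over all other kept genes, with values beyond 1 drawn at the edge. Most members lie in the lower left, close to 0, and Mrpl52, Mrps21 and Mrpl45 lie farthest out in the same direction in both genotypes.

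The next question is whether the response to fasting depends on AgRP. The interaction called 0 members and 0% of all genes, with 0 members at an unadjusted p under 0.05 beside 2.64% of all genes. The median interaction of the members was 0.0065, and the 95% interval of a member's interaction spanned ± 0.27 in the median. That interval is for a single gene without adjustment, and it is not the limit for a call over all kept probes. Over all genes the interaction ran from -2.10 to 2.51 with 0% called, so differences in response larger than the interval could also be missed. Mrps35, a small-subunit protein particular to mitochondria, had the most negative interaction. It read 8.23, 8.24, 8.30 and 7.97 in fasted and 8.51, 8.43, 8.66 and 8.19 in fed AgRP-/- arrays, and 8.63, 8.45, 8.30 and 8.32 in fasted and 8.24, 8.57, 8.32 and 8.58 in fed AgRP+/- arrays. The fasted arrays were mostly lower in AgRP-/- mice and mixed in AgRP+/- mice, and the interaction of -0.26 was not called (SE 0.163, adjusted p = 0.999). Mrpl47 had the most positive, at 0.23, then Mrpl45 at 0.20, and Mrpl22 read -0.19 (adjusted p = 0.999 for each). The other kept Mrpl47 probe, near background with a mean of 5.16, read -0.0058. For Mrpl45, also near background, the interaction ran from -0.082 to 0.43 with single arrays left out.

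Genotype itself is the last comparison. Averaged over feeding 0 members were called between AgRP-/- and AgRP+/- mice, as were 0.0315% of all genes, and the median difference was -0.0067 beside -0.0075 for all genes. A total of 57 members (82.6%) differed by less than 0.1, against 67.1% of all genes. At an unadjusted p under 0.05 stood 0 higher and 3 lower members, with 8.93% of all genes in either direction. In fasted mice 0 members and 0.0105% of all genes were called, with 0 higher and 3 lower members at an unadjusted p under 0.05 beside 7.14% of all genes. In fed mice 0 members and 0% of all genes were called, with 0 members at an unadjusted p under 0.05 beside 4.29% of all genes. Mrps12 had the smallest p of the averaged comparison. It spanned 11.41 to 11.75 with a median of 11.44 in the 8 AgRP-/- arrays and 11.51 to 11.88 with a median of 11.72 in the 8 AgRP+/- arrays, and the difference was -0.18 (SE 0.0529, unadjusted p = 0.00239, limma adjusted p = 0.373). The ranges overlapped, and most AgRP-/- arrays lay below most AgRP+/- arrays. Over all alternatives the difference ran from -0.21 to -0.11 (limma adjusted p from 0.298 to 0.677). After group means were removed, Mrps12 correlated at 0.83 with the Actb difference. That Actb difference had means of 4.59 and 5.35 in fasted and fed AgRP-/- arrays, and 4.95 and 5.83 in AgRP+/- arrays. Its part in the genotype difference of Mrps12 was not tested beyond the covariate fit. By size, the other large differences were Mrps21 at -0.19, Mrpl51 at -0.17, Mrps2 at -0.15 and Mrpl30 at -0.15, and on the other side Mrpl52 at 0.26, Mrps18c at 0.15, Mrpl20 at 0.13, Mrpl1 at 0.10 and Mrpl17 at 0.078, with 0 called. Mrpl52, which had the largest averaged difference, was 0.13 without AgRP+/- fasted replicate 4. Within fasted mice it was 0.29, and 0.024 without that array, and Mrps35 was -0.24. Within fed mice Mrpl52 was 0.23, and 0.15 without AgRP+/- fed replicate 1, and Mrps21 was -0.22, and -0.14 without AgRP+/- fed replicate 3.

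The members varied less within groups than most genes, with a median SD of 0.126 against 0.168, from 0.059 for Mrps22 to 0.519 for Mrpl45. The members were also brighter, with a median level of 9.98 against 7.86 for all genes. Genes of equal brightness were not compared, so the smaller spread is not shown to be particular to the members. They also varied together. After each group's mean was removed, pairs of members had a median correlation of 0.30 over the 16 arrays, with 74.6% of pairs above 0, while pairs of all genes had 0.0030. Pairs within the small subunit had 0.26 and within the large subunit 0.35. Cytosolic ribosomal protein genes had 0.36 among themselves and 0.31 with the members, and respiratory chain genes 0.29 among themselves and 0.29 with the members, so the shared variation was not limited to the mitochondrial ribosome. Mrpl14 followed the other members most closely, with a median correlation of 0.59. Below 0 were Mrpl9, Mrpl57, Mrpl4, Mrps5, Mrpl45, Mrpl35, Mrpl51, Mrps23 and Mrps2, from -0.51 for Mrpl9 to -0.040 for Mrps2. Of these, Mrpl45, Mrpl35, Mrpl57, Mrpl51 and Mrps2 had mean levels of 5.57 to 7.21, and the others were brighter. These correlations share arrays and depth of signal, and they describe the arrays rather than test anything.

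The mean of the 69 members, relative to all arrays, shows which arrays carried that variation. It was 0.010, -0.10, 0.0053 and -0.035 in fasted AgRP-/- arrays and -0.010, 0.057, 0.071 and -0.049 in fed AgRP-/- arrays. In AgRP+/- mice it was 0.053, -0.027, 0.013 and -0.11 in fasted and 0.0071, -0.094, 0.12 and 0.094 in fed arrays. Low arrays occurred in both fasted and fed groups. The highest values stood in fed arrays, above the highest fasted array at 0.053, and the groups overlapped. The mean was -0.024 ± 0.0572 in fasted and 0.024 ± 0.0735 in fed arrays (SD, n = 8 each). Over all 16 arrays, after group means were removed, the median correlation of the members with the Actb difference was -0.034 and with the dopamine transcripts 0.070, against -0.029 and -0.014 for all genes. Single members lay far from these medians. With the Actb difference they ran from -0.64 for Mrps9 to 0.83 for Mrps12, with 46.4% above 0, against 47.0% of all genes. With the dopamine transcripts they ran from -0.47 for Mrpl51 to 0.60 for Mrps33.

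**Figure D5:**
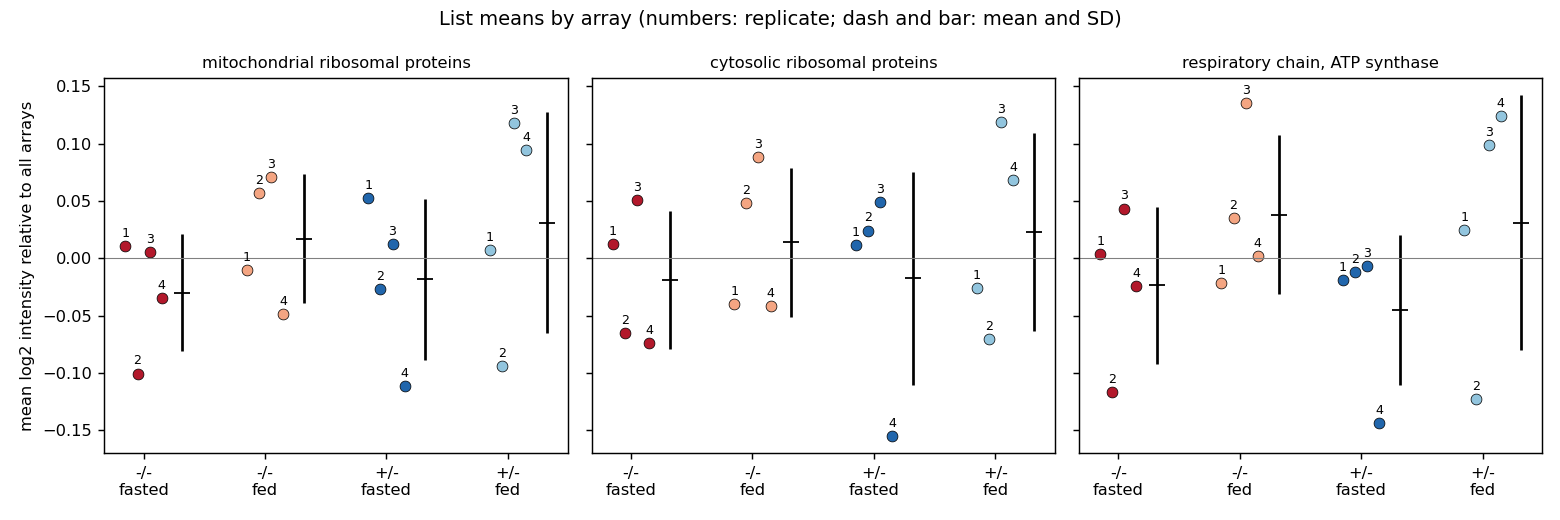
Mean log2 intensity relative to all arrays for the mitochondrial ribosomal proteins, the cytosolic ribosomal proteins, and the respiratory chain and ATP synthase, with 1 point per array labelled by replicate number and the mean and SD of each group of 4. In each set AgRP-/- fasted replicate 2, AgRP+/- fasted replicate 4 and AgRP+/- fed replicate 2 lie low and AgRP+/- fed replicate 3 lies high, in overlapping groups.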

How the data were processed

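The authors deposited a table of log2 intensities of 25697 Illumina bead-array probes, 1 column per array. Limma is named per the submitters' processing notes, and the normalization is not given in the sources used here. Column medians differed by at most 0.00855. Probes were named from the platform annotation, which can be old. Slides and scans were not analysed here. Precision is limited by the number of arrays.

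Values were used as deposited. Of the probes 13662 (53.2%) exceeded 5.125 in at least 4 arrays. Limma 3.58.1 (R 4.3.3) fitted 1 mean for each group over the 16 arrays, with 12 residual degrees of freedom and an intensity trend in the empirical Bayes step, and gave 7 contrasts. P-values were adjusted by Benjamini-Hochberg over all kept probes and called under 0.05. The model code was run on simulated data with independent noise for each probe and planted changes larger than those of most members. Such data lack the shared variation described above, so the run does not bear on small shifts of the members. Alternatives were other filters, quantile normalization, median centring, no trend, array weights, the compared groups alone, a replicate block, the mean of a gene's probes, the Actb difference and the dopamine transcripts as covariates, and leaving out arrays.

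The members and lists were chosen with earlier results of these data known. Named were called members, the 5 largest rises and falls of averaged contrasts and 2 of the others, members with differing probes or distinct roles, and in other lists the 3 smallest p. Mrps24, Mrpl33, Mrpl53, Mrpl23, Mrpl14, Mrpl54, the low-correlated members and those near the filter were named after their values were seen. Promoter windows are from RefSeq.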

Additional observations from a re-analysis of the deposited data

Results flagged for a closer look

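Of 108 groups of 4 arrays checked for an outlying array, over 24 named members and the list means, 2 held one by Dixon's criterion, and chance alone gives about 1 in 20 groups. Mrps12 read 11.4466 in AgRP-/- fasted replicate 2, against 11.41 in each of the other 3 arrays of that group, a gap of 0.880 of the range. The group spans little on the log2 scale, so the gap is small in absolute terms. In the same array the mean of the small-subunit genes, relative to all arrays, was -0.10249, while the other 3 lay between -0.023 and -0.010, a gap of 0.861 of the range. The cause was not tested.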

How the results depend on the processing

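Called members in fasting averaged over genotypes numbered 1 as reported. The count was 2 without the filter (Mrps21 and Mrpl39, which lies near background), 3 with the stricter filter, 3 with array weights, 4 with the mean of all kept probes of a gene and 3 without the array with pituitary transcripts, AgRP+/- fed replicate 2. It was 0 without the intensity trend, 0 with the Actb difference and 0 with the dopamine transcripts as covariates. With single arrays left out it ran from 0 to 3; the arrays that removed the call of Mrps21 are named with that gene, and without AgRP-/- fed replicate 1 the single call was Mrps24. With the replicate number as a block it was 2 (Mrps18a and Mrps21). With that block Mrps21 had an SE of 0.061 and a limma adjusted p of 0.00715. Whether the numbers pair the arrays is not stated in the labels. After group means were removed, 24 same-numbered pairs correlated between -0.19 and 0.30, with a median of 0.022 against -0.019 for other pairs. Of 16 arrays 5 had their closest partner under their own number. These values neither show nor exclude a pairing. Causes were not tested.

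In the other 6 contrasts 0 members were called under every alternative run. The median change of the members with fasting, averaged over genotypes, ran from -0.071 to -0.035 and stayed below 0. The medians of the 3 genotype contrasts and of the interaction lay near 0 and changed sign with some arrays left out, and that of the interaction also with array weights and with the dopamine transcripts as a covariate. Of 1251 recomputed values of single named members, 1229 kept their side of the threshold, 9 passed it only under an alternative, 13 only as reported, and 23 uncalled ones changed sign. The number of arrays and signal near background, as for Mrpl45, limit what could be seen.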
